A study of Homo sapiens with 13 samples.

Results

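The genes described here are the WNT ligands, the Frizzled receptors and a set of genes that carry, restrain or report WNT signaling. They were chosen by symbol: every gene of the WNT and FZD families together with 16 named genes, which gave 45 of the 56831 genes listed. Of these, 19 encode WNT ligands, 10 Frizzled receptors, 2 the co-receptors LRP5 and LRP6, 2 the scaffold proteins AXIN1 and AXIN2, and 5 the effectors *CTNNB1*, *LEF1*, *TCF7*, *TCF7L1* and *TCF7L2*. The others are the R-spondin receptors *LGR4* and *LGR5*, the receptor ligases *RNF43* and *ZNRF3*, and the inhibitors *NKD1*, *DKK1* and *SFRP1*. RNA was sequenced from the established small cell lung cancer (SCLC) lines H82, of the SCLC-N subtype, and H146, of the SCLC-A subtype, both listed as wild type. FHD-286, an inhibitor of the ATPases SMARCA4 and SMARCA2 of the SWI/SNF chromatin remodeler, was given at 100 nM for 14 days. H82 had 3 untreated and 3 treated libraries, and H146 had 3 untreated and 4 treated libraries. Nothing in the labels says that libraries of a group came from separate cultures, so the *p* values measure the spread between libraries.

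WNT proteins are secreted lipid-modified ligands that bind Frizzled receptors on the cell surface. In the canonical branch, a ligand joins Frizzled to LRP5 or LRP6, the destruction complex built on AXIN stops marking beta-catenin (*CTNNB1*) for degradation, and beta-catenin turns on genes together with LEF1 and the TCF factors. *AXIN2*, *LEF1*, *NKD1*, *RNF43* and *ZNRF3* are widely used targets of this branch, and apart from *LEF1* their products dampen it. Ligands such as WNT5A and WNT11 are best known for beta-catenin-independent signaling, in which cell polarity and movement are controlled.

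Values are TPM, a unit that relates the reads of a gene to its length and, in the authors' tables, to the same total in each library. The values carry no read numbers, so the spread between libraries sets the precision. In H82, 21227 to 21772 genes reached 1 TPM without drug and 15554 to 16633 with drug, while H146 had 17476 to 17965 and 18778 to 19309. Transcripts of the mitochondrial genome accounted for 22.1% to 24.1% of each untreated H82 library and 12.3% to 14.9% of each treated one, against 7.56% to 8.86% and 3.82% to 11.4% in H146. At least 6 of 7 neuroendocrine markers were at 1 TPM in each library, and their sums did not overlap between groups, at 1080 to 1210 TPM without and 1250 to 1560 TPM with drug in H82 and 3370 to 3860 and 2550 to 2720 TPM in H146. In H82 these markers went both ways, with *SYP* (193 to 212 against 31.5 to 58.1 TPM) and *CHGA* (114 to 159 against 14.3 to 62.5 TPM) lower and *UCHL1* (384 to 430 against 808 to 1050 TPM) higher in the treated libraries. In H146, *UCHL1* (1930 to 2110 against 1360 to 1540 TPM) and *INSM1* (1140 to 1400 against 758 to 1020 TPM) were lower with drug. *DLL3* was lower there too (63.6 to 75.3 against 43.8 to 49.8 TPM), while *SYP*, *CHGA* and *NCAM1* overlapped between the H146 groups. *NEUROD1*, the lineage factor of the SCLC-N subtype, was at 224 to 234 TPM in untreated and 48 to 112 TPM in treated H82, and did not exceed 0.521 TPM in H146. One library stood apart: for 16 genes that were at 50 TPM or more throughout H146 and at most 0.1 TPM in untreated H82, treated H82 replicate 2 summed to 241 TPM, which is 5.29% of the highest H146 sum, against 33.6 TPM in treated replicate 1 and 13.8 TPM in replicate 3. The part of these transcripts in the results was not tested, and calls that changed without this library are given both ways. Over all genes with a group mean of at least 1 TPM, treated H82 replicate 1 differed most from the other treated libraries. The SD of its log2 differences was 0.89 from replicate 2 and 0.80 from replicate 3, against 0.59 between replicates 2 and 3. In treated H146 the largest SDs were those of replicate 2, at 0.77 from replicate 3 and 0.81 from replicate 4. Replicate 1 was at 0.54, 0.56 and 0.59 from replicates 2, 3 and 4, against 0.36 between replicates 3 and 4. Over their 3 markers, epithelial genes summed to 1.39 to 3.16 TPM in untreated and 7.9 to 63 TPM in treated H82, and to 1290 to 1330 and 450 to 534 TPM in H146. The 63 TPM belonged to treated H82 replicate 2, the library that stood apart, against 14 TPM in replicate 1 and 7.9 TPM in replicate 3. The 5 fibroblast markers summed to 0.912 to 1.84 and 7.05 to 33.9 TPM in H82, and to 6.68 to 8.59 and 16.6 to 32 TPM in H146. Immune markers reached 9.16 TPM at most, and of the 3 endothelial markers *VWF* was at 1.6 to 2.25 TPM in untreated H146 and none was at 1 TPM in the other groups. The part of these markers in the results was not tested either.

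In treated H82, 7 of the 29 WNT pathway members that passed the filter were higher and 9 were lower, and 13 did not pass the test. The filter asked for 1 TPM in 3 libraries of the line, and the call for an adjusted *p* under 0.05 (limma on log2(TPM + 1), two-sided, adjusted over all genes tested). Among all 19770 genes tested in H82, 13.1% were higher and 45.5% lower. The median log2 fold change was -0.11 for the members and -0.56 for all genes. When the libraries were scaled to one another by the median of ratios, 10 members were higher and 4 lower, against 23.7% and 33.6% of all genes. Without treated H82 replicate 2, 26 members were tested, of which 4 were higher and 6 lower, against 9.03% and 42.6% of all genes. *WNT5A* and *WNT11* were not tested without it, since only 2 libraries then reached 1 TPM. Some members passed the filter only through the group in which they were high, and so had to differ: *WNT5A* and *WNT11* (higher) and *WNT2B*, *WNT6* and *WNT10A* (lower) in H82, and *WNT3*, *WNT5A*, *FZD4*, *RNF43* and *NKD1* (all higher) in H146. The counts of calls include them and are a description of the members that passed. With no filter, the adjusted *p* in H82 was 0.0156 for *WNT5A* and 0.00332 for *WNT11*. In bulk RNA, fewer cells of a type and less RNA per cell cannot be told apart, and this holds for each result given here.

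In treated H146, 13 of 33 members were higher and 5 were lower, against 32.5% and 15.5% of the 19585 genes tested. The median log2 fold change was 0.38 for the members and 0.25 for all genes. With the median of ratios, 11 members were higher and 7 lower, against 22.6% and 23.6% of all genes. Members whose treated and untreated libraries did not overlap numbered 7 with treatment above and 11 with treatment below in H82, against 16.4% and 51.4% of all genes (67.8% in either direction), and 16 and 5 in H146, against 35.7% and 17.3% (52.9%). Of the 26 members tested in both lines, *WNT5A* and *FZD4* were higher in both, which is 7.69% of them against 4.83% of all 15679 genes tested in both. *AXIN2*, *LRP6*, *NKD1* and *TCF7L2* were lower in H82 and higher in H146 (15.4%, against 13.2% of all genes). *WNT11* and *FZD9* were higher in H82 and lower in H146 (7.69%, against 2.3%). These shares are a description, since they include members that passed the filter only through the group in which they were high. Those members were *WNT5A* in both lines, *FZD4* and *NKD1* in H146 and *WNT11* in H82. With the median of ratios, *AXIN2* (adjusted *p* = 0.0819) and *TCF7L2* (0.317) lost their H82 calls, and the share of all genes was not computed.

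**Figure D1:**
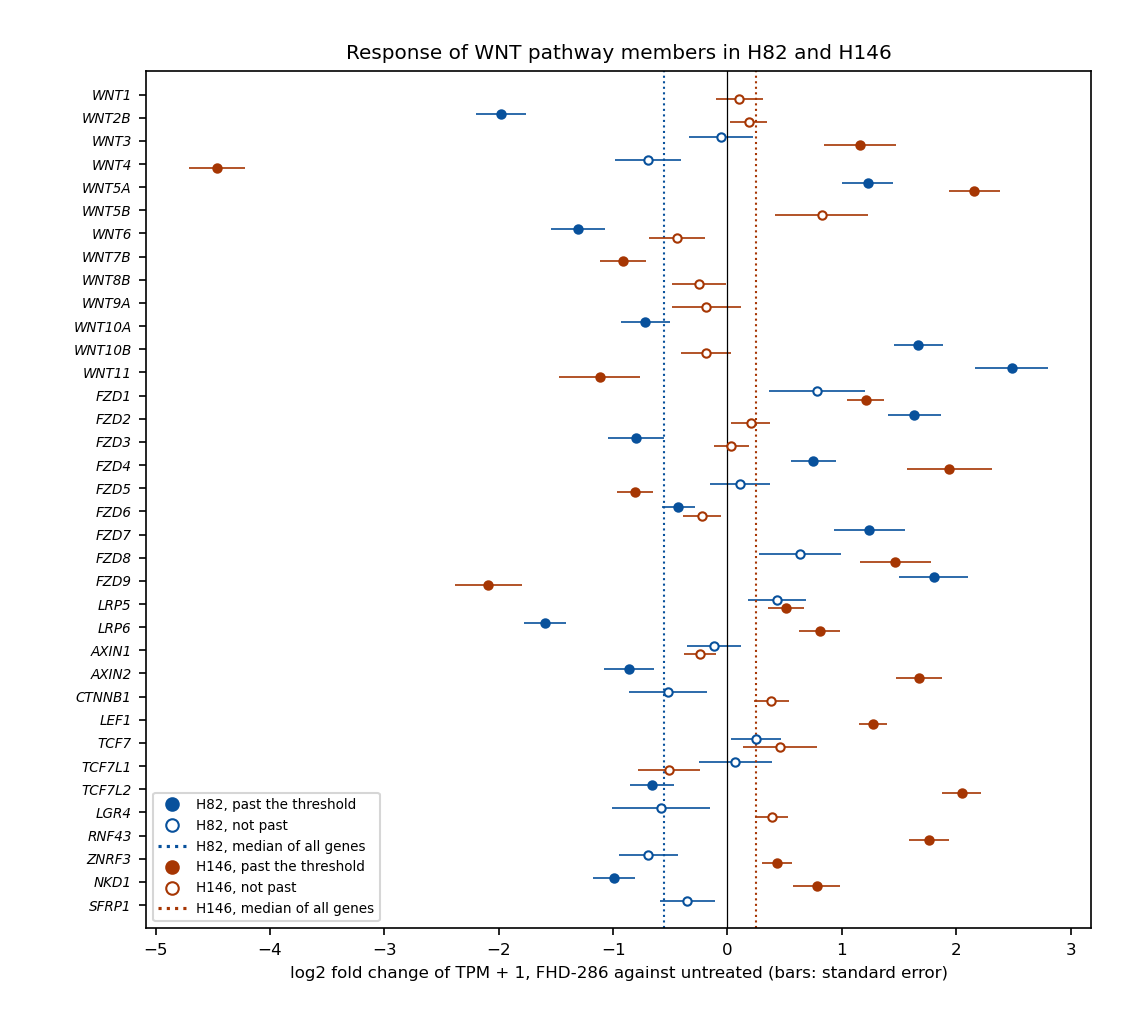
Log2 fold change of TPM + 1 with treatment (horizontal axis, bars are standard errors) for each member that passed the filter in H82 (blue) or H146 (brown), with filled points past the threshold and dotted lines at the median of all genes tested, -0.56 in H82 and 0.25 in H146. The largest fall is *WNT4* in H146 at -4.46 and the largest rise is *WNT11* in H82 at 2.49.

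For 31 of the 45 members, RefSeq start sites on GRCh38.p14 gave 38 promoter windows, each of 250 bases before and 50 bases after the start. The windows shown belong to the ligand with the largest fall (*WNT4*), to the genes that rose in both lines (*WNT5A* and *FZD4*), to the receptor that moved in opposite directions (*FZD9*), and to the effector with the largest rise in H146 (*TCF7L2*). *TCF7L2* has 3 windows, of which the only one with a match is shown, and *WNT5A* has 2, of which the first by position is shown. The windows were searched on both strands for the core of the LEF/TCF motif, taken as CTTTG followed by 2 bases that are each A or T, and the match is in capitals.
WNT4, chr1:22143048-22143347, minus strand: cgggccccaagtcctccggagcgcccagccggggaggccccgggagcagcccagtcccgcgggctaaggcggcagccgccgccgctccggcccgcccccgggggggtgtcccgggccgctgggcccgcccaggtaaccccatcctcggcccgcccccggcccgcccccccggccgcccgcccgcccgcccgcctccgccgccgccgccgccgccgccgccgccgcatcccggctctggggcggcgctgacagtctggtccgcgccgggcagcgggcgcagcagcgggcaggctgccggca
WNT5A, chr3:55481349-55481648, minus strand: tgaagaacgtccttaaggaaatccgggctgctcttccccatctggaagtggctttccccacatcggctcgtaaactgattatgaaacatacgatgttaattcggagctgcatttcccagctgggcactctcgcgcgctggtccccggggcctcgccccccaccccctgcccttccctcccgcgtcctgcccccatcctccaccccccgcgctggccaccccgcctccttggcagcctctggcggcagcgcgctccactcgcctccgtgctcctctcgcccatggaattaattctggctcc
FZD4, chr11:86955346-86955645, minus strand: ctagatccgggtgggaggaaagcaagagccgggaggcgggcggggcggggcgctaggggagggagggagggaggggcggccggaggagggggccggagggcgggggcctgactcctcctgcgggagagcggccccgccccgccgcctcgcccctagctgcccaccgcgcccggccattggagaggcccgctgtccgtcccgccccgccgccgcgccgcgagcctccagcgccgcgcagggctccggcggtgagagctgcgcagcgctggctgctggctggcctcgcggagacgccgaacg
FZD9, chr7:73433528-73433827, plus strand: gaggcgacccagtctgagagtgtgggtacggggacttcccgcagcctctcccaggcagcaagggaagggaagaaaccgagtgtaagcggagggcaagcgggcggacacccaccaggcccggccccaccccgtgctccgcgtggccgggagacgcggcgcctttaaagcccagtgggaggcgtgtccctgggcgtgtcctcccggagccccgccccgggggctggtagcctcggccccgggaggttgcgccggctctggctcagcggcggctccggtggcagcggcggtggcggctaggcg
TCF7L2, chr10:113126383-113126682, plus strand: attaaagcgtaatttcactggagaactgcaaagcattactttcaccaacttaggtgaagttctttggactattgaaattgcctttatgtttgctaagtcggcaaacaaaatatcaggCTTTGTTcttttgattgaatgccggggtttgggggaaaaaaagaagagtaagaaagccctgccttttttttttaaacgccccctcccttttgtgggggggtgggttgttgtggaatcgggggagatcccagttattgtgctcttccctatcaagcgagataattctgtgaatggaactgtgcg
In *TCF7L2* the core CTTTGTT lay 133 bases before the start, at an internal start site of the gene, and the other windows printed, like the remaining ones of *TCF7L2* and *WNT5A*, hold no such letters. A match was present in 4 of 38 member windows (10.5%) and in 13.8% of all 35116 windows of this length. The matching windows were those of *DKK1*, *TCF7*, *TCF7L2* and *WNT3*. No window was available for the targets *AXIN2*, *NKD1* and *ZNRF3*, nor for *LRP6*, *LGR5*, *SFRP1*, *WNT7B*, *WNT10B* and *WNT11*. The same holds for *FZD2*, *FZD3*, *FZD6*, *FZD7* and *FZD10*, so none of these members was searched. The windows of the members were rich in G and C, with a median of 66.3% against 58.7% for all windows.

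The 19 ligand genes together gave less RNA in treated than in untreated H146, through *WNT4*, and more in treated than in untreated H82. Their summed level was 63.3 ± 4.54 TPM (SD, n = 3) in untreated and 39.3 ± 10.2 TPM (n = 4) in treated H146, and 18.7 ± 0.874 and 30.8 ± 4.44 TPM (n = 3 each) in H82. The sums did not overlap in either line: they ranged from 58.1 to 66.3 TPM without and from 27.8 to 48.8 TPM with drug in H146, and from 18.1 to 19.7 and from 27.4 to 35.8 TPM in H82. *WNT4* alone made up 42.5% to 54.3% of the ligand RNA in untreated H146. Its mean in H146 was 31.6 TPM without and 0.52 TPM with drug, a larger fall than that of the mean ligand sum. The mean sum of the other ligands was therefore not lower with drug in H146. With drug, the leading ligand of H146 was *WNT10B*, *WNT5A* or *WNT5B*, depending on the library. In H82, *WNT3* (29.5% to 31.5%) and *WNT2B* (25.6% to 29.2%) led without drug, and *WNT11* (21.3% to 31.1%) and *WNT10B* (17.1% to 25.9%) with drug.

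**Figure D2:**
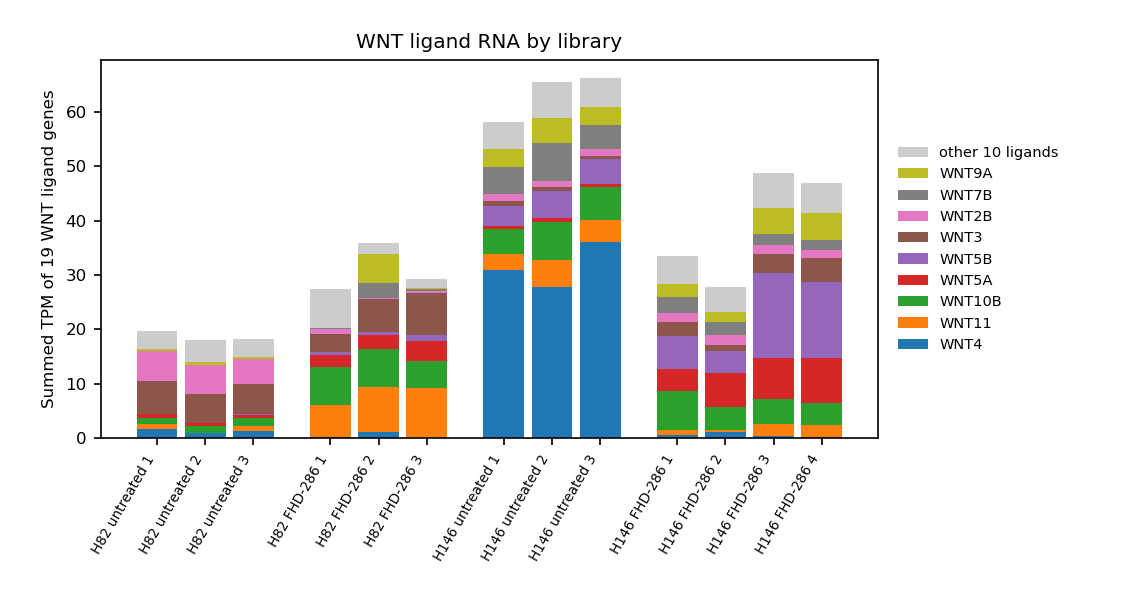
Summed TPM of the 19 WNT ligand genes (vertical axis) in each library (horizontal axis), with 9 ligands in colors and the other 10 in grey. *WNT4* fills 42.5% to 54.3% of the bars of untreated H146 and is at most 1.18 TPM in treated H146, and *WNT11* and *WNT10B* lead in treated H82.

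*WNT4* (chr1:22117313-22143969), a ligand known for its role in kidney and female reproductive tract development, showed the largest difference of any member. It was at 30.9, 27.8 and 36 TPM in the untreated H146 libraries and at 0.51, 1.18, 0.284 and 0.111 TPM in the treated ones. The untreated values all lay far above the treated ones, and *WNT4* fell by 4.46 on the log2(TPM + 1) scale (SE 0.24, adjusted *p* = 8.99e-06). In H82 the gene was at 1.61, 0.917 and 1.27 TPM without and 0.211, 1.04 and 0.0845 TPM with drug, and the groups overlapped through treated replicate 2 (log2 fold change -0.69, adjusted *p* = 0.0739). The fall in H82 passed the threshold with TPM taken without mitochondrial genes (-0.85, adjusted *p* = 0.0454).

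*WNT5A* (chr3:55465715-55490539) rose in both lines. It was at 0.726, 0.491 and 0.609 TPM in untreated and 2.07, 2.63 and 3.76 TPM in treated H82, a log2 fold change of 1.23 (SE 0.23, adjusted *p* = 0.00331). In H146 the values were 0.613, 0.726 and 0.59 TPM without and 4.2, 6.13, 7.48 and 8.19 TPM with drug, a log2 fold change of 2.16 (SE 0.22, adjusted *p* = 0.000189). The untreated values of both lines lay between 0.491 and 0.726 TPM, and no treated library of either line overlapped them. In both lines *WNT5A* passed the filter through the treated libraries alone, and so had to differ. Its close relative *WNT5B* was at 3.79, 5.1 and 4.6 TPM in untreated H146 and at 6.07, 4.03, 15.6 and 14 TPM in treated H146. Treated replicates 3 and 4 lay above the rest, replicate 2 lay within the untreated range, and the difference did not pass the test (log2 fold change 0.83, adjusted *p* = 0.125), although it did without treated replicate 2 (1.14, adjusted *p* = 0.0129).

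*WNT11* (chr11:76186325-76210736), a ligand of gastrulation movements, rose in H82 and fell in H146. In H82 it was at 0.958, 0 and 0.853 TPM without and 5.82, 8.27 and 9.08 TPM with drug (log2 fold change 2.49, SE 0.32, adjusted *p* = 0.000804). Its H146 levels were 3.06, 4.91 and 4.07 TPM without and 1.05, 0.222, 2.37 and 2.21 TPM with drug (-1.12, SE 0.36, adjusted *p* = 0.0313). The groups were apart in both lines, with treated replicate 2 the lowest in H146. In H82, *WNT11* passed the filter through the treated libraries alone, and so had to differ. The call in H146 was lost with a pseudocount of 0.1 (adjusted *p* = 0.0622) and with no filter (adjusted *p* = 0.0802). It was also lost without treated replicate 1 (adjusted *p* = 0.0682) and without any one of the untreated libraries (adjusted *p* = 0.0534, 0.106 and 0.0967 for replicates 1, 2 and 3).

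*WNT10B* (chr12:48965340-48971735), known from mammary gland and bone, rose in H82 from 1.09, 1.28 and 1.56 TPM to 7.09, 7.07 and 5 TPM (log2 fold change 1.67, SE 0.21, adjusted *p* = 0.000796). The H146 libraries had 4.44, 7.01 and 6.11 TPM without and 7.02, 4.37, 4.57 and 4.19 TPM with drug, and these groups overlapped (log2 fold change -0.19, adjusted *p* = 0.502). *WNT2B* (chr1:112466541-112530165), which takes part in setting up the embryonic lung, fell in H82 from 5.42, 5.29 and 4.68 TPM to 0.913, 0.287 and 0.508 TPM (-1.98, SE 0.22, adjusted *p* = 0.000456). In H146 the levels were 1.39, 1.24 and 1.36 TPM without and 1.67, 1.85, 1.62 and 1.46 TPM with drug, where the groups were apart but did not pass the test (0.18, adjusted *p* = 0.363). Treated H82 thus held more *WNT10B* and less *WNT2B* RNA than every untreated H82 library, although *WNT2B* passed the filter there through the untreated libraries alone.

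*WNT6* (chr2:218859805-218874233) fell in H82 from 1.13, 2.44 and 1.2 TPM to 0.0702, 0 and 0 TPM (log2 fold change -1.30, SE 0.24, adjusted *p* = 0.00311). H146 had 0.68, 1.58 and 1.13 TPM without and 0.452, 0.313, 0.378 and 1.18 TPM with drug, and the groups overlapped (-0.44, adjusted *p* = 0.17). *WNT10A*, a ligand of tooth, hair and skin, was also lower in H82 (log2 fold change -0.72, adjusted *p* = 0.0238), at 1.08 to 1.63 TPM without and 0.262 to 0.735 TPM with drug. Both genes passed the filter in H82 through the untreated libraries alone. Neither of these falls passed the test under quantile normalization, where *WNT6* was at -0.23 and *WNT10A* turned to 0.43. The call of *WNT10A* was also lost with the median of ratios (adjusted *p* = 0.092) and without treated replicate 2 or 3 (adjusted *p* = 0.0807 and 0.0815).

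*WNT3* (chr17:46762506-46833154), a canonical ligand, rose in H146 from 0.802, 0.576 and 0.564 TPM to 2.46, 1.11, 3.59 and 4.43 TPM (log2 fold change 1.16, SE 0.31, adjusted *p* = 0.016). All treated values were above the untreated ones and replicate 2 was the lowest of them. The gene passed the filter in H146 through the treated libraries alone. The call was lost without untreated replicate 2 (adjusted *p* = 0.0541) or 3 (adjusted *p* = 0.0627). In H82, *WNT3* was at 6.19, 5.33 and 5.57 TPM without and 3.36, 6.05 and 7.71 TPM with drug, with the treated values on both sides of the untreated ones (-0.05, adjusted *p* = 0.883). *WNT7B*, a ligand expressed in developing lung, fell in H146 from 4.95, 6.88 and 4.27 TPM to 2.94, 2.47, 2.08 and 1.9 TPM (-0.92, SE 0.20, adjusted *p* = 0.00659).

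The ligand genes *WNT1* (log2 fold change 0.10), *WNT8B* (-0.25) and *WNT9A* (-0.18) did not pass the test in H146. Among the 45 members, 16 were under the filter in H82 and 12 in H146. Exact permutation tests on log2(TPM + 1) cannot give less than 0.1 with 3 against 3 libraries and 0.0286 with 3 against 4. In H82, 10 of the 16 were above 0 in at least 3 libraries, and 4 of these, *WNT5B*, *WNT7B*, *WNT16* and *LEF1*, had all treated above all untreated values (exact *p* = 0.1 each). That arrangement was seen in 11.7% of the 9490 genes under the filter in H82, and the reverse in 33.5% (45.3% for either). *WNT16* was at 0.176, 0.398 and 0.188 TPM without and 4.4, 1.45 and 0.743 TPM with drug. *WNT7B* had a listed value of 0 in each untreated H82 library and of 0.0473, 2.75 and 0.253 TPM with drug, so the library that stood apart was the highest by far. The same library was the highest for *WNT9A*, at 5.28 TPM against 0.0301 and 0.225 TPM with drug otherwise and 0.258 to 0.522 TPM without. The remaining 6 members, *WNT2*, *WNT3A*, *WNT7A*, *WNT8A*, *WNT9B* and *FZD10*, did not exceed 0.0909 TPM in H82, and *WNT2* and *WNT9B* were listed at 0 throughout.

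In H146, the 12 members under the filter were *WNT2*, *WNT3A*, *WNT7A*, *WNT8A*, *WNT9B*, *WNT10A*, *WNT16*, *FZD7*, *FZD10*, *LGR5*, *DKK1* and *SFRP1*, none above 1.68 TPM. The groups were apart, with treatment above, for *WNT3A* (exact *p* = 0.0857), *FZD7* (exact *p* = 0.0571) and *DKK1* (exact *p* = 0.171), an arrangement found in 19% of the 12239 genes under the filter, against 6.14% for the reverse and 25.2% for either. *DKK1*, a secreted inhibitor that binds LRP5 and LRP6, was at 0.0438, 0 and 0 TPM without and 0.249, 0.0965, 1.36 and 1.68 TPM with drug.

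**Figure D3:**
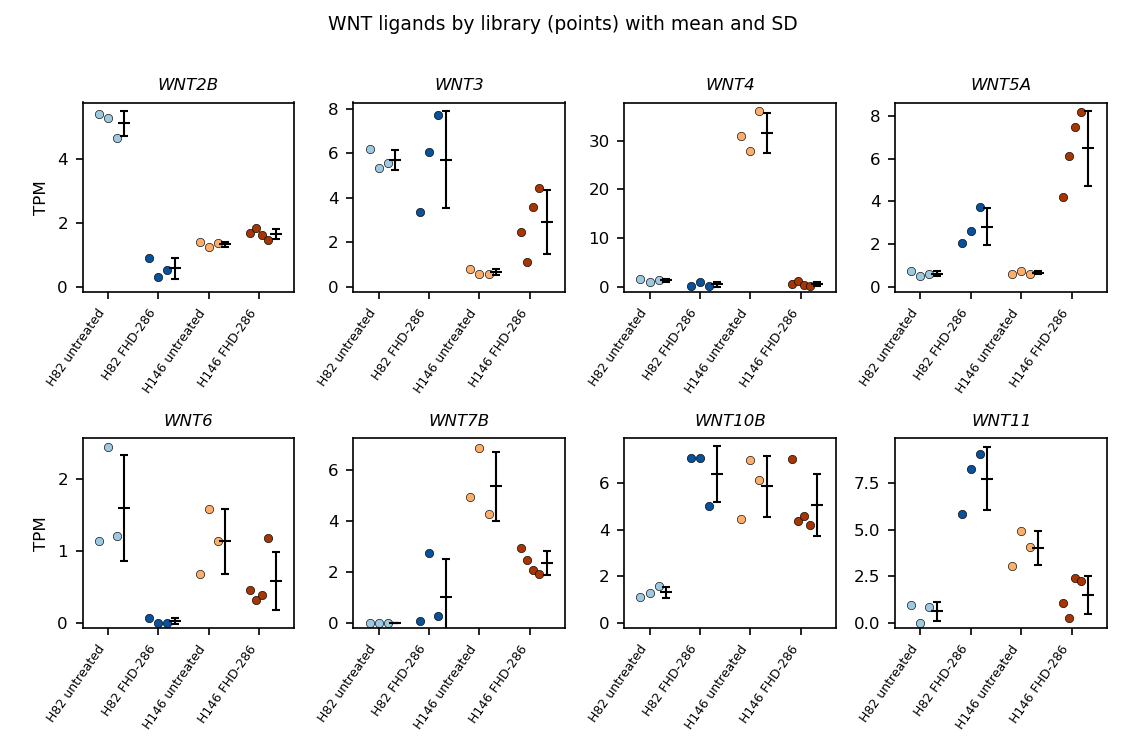
TPM of 8 WNT ligand genes (vertical axes, linear, each from 0) in every library, with points for libraries and the mean and SD beside each group. Treated and untreated points of *WNT5A* are apart in both lines, and *WNT4* drops from between 27.8 and 36 TPM to at most 1.18 TPM in H146.

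The Frizzled receptors gave more RNA in treated than in untreated H82, where 4 of the 9 tested were higher (*FZD2*, *FZD4*, *FZD7* and *FZD9*) and 2 lower (*FZD3* and *FZD6*), against 13.1% and 45.5% of all genes. Without treated replicate 2, 3 were higher and the falls of *FZD3* and *FZD6* no longer passed the test. In H146, 3 of 8 were higher (*FZD1*, *FZD4* and *FZD8*) and 2 lower (*FZD5* and *FZD9*), against 32.5% and 15.5%. The median log2 fold change of the tested receptors was 0.75 in H82, against -0.56 for all genes, and 0.12 in H146, against 0.25. Summed over the 10 genes, the H82 level was 129 ± 3.83 TPM without and 218 ± 61.5 TPM with drug (SD, n = 3 each), and 134 ± 18.1 TPM (n = 3) and 157 ± 21.9 TPM (n = 4) in H146. With the median of ratios, 5 receptors were higher in H82 and 4 did not pass the test, and *FZD6* turned from -0.43 to 0.01.

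*FZD9* (chr7:73433778-73436120) moved in opposite directions in the lines. In H82 it rose from 1.8, 0.333 and 1.31 TPM to 6.18, 6.47 and 5.84 TPM (log2 fold change 1.80, SE 0.30, adjusted *p* = 0.00219). In H146 it fell from 28, 37 and 29.5 TPM to 7.05, 3.32, 7.89 and 9.68 TPM (-2.09, SE 0.29, adjusted *p* = 0.000804). The groups were apart in both lines, and the treated libraries of H82 (5.84 to 6.47 TPM) lay within the range of treated H146 (3.32 to 9.68 TPM).

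*FZD4* (chr11:86945679-86955395), the receptor of norrin in retinal vessels, rose in both lines. The H82 libraries had 1.17, 0.984 and 1.33 TPM without and 2.3, 3.21 and 2.44 TPM with drug (log2 fold change 0.75, SE 0.20, adjusted *p* = 0.0148). Its H146 values were 0.0784, 0.052 and 0.106 TPM without and 1.64, 1.69, 5.2 and 5.69 TPM with drug (1.94, SE 0.37, adjusted *p* = 0.00344). Treated H146 replicates 3 and 4 were well above replicates 1 and 2, all of them above the untreated libraries. *FZD4* passed the filter in H146 through the treated libraries alone. In H82 the call of *FZD4* was lost without treated replicate 2 (adjusted *p* = 0.052) and without any one untreated library (adjusted *p* = 0.093, 0.084 and 0.0754 for replicates 1, 2 and 3).

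*FZD2* (chr17:44557484-44561262) rose in H82 from 9.17, 7.86 and 6.4 TPM to 34.5, 24.8 and 20.7 TPM (log2 fold change 1.63, SE 0.23, adjusted *p* = 0.00116), with no overlap. The H146 libraries had 31.6, 42.9 and 38.6 TPM without and 53.7, 46.7, 36.3 and 38.2 TPM with drug, and the groups overlapped (0.20, adjusted *p* = 0.362). *FZD7* (chr2:202033855-202038441), a receptor of many stem and epithelial cells, rose in H82 from 32.3, 26.5 and 29 TPM to 41.8, 85.2 and 97.1 TPM (1.24, SE 0.31, adjusted *p* = 0.0121). Treated replicate 1 was the lowest treated library and still above the untreated ones, and without untreated replicate 2 the adjusted *p* was 0.0565. In H146, *FZD7* was at 0.5, 0.249 and 0.249 TPM without and 0.883, 0.773, 1.22 and 0.571 TPM with drug.

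*FZD1* (chr7:91264433-91271326) rose in H146 from 12.7, 16.1 and 13.7 TPM to 37.6, 26.6, 36.3 and 36.4 TPM (log2 fold change 1.21, SE 0.16, adjusted *p* = 0.000608). In H82 the levels were 32.4, 30.7 and 31.6 TPM without and 25.9, 78.8 and 81.6 TPM with drug. Treated replicate 1 lay below the untreated libraries and the other treated libraries far above them, so the difference did not pass the test (0.79, adjusted *p* = 0.148) but did with the median of ratios (1.24, adjusted *p* = 0.0291) and without treated replicate 1 (1.32, adjusted *p* = 0.00012). *FZD8* (chr10:35638247-35642296) rose in H146 from 9.36, 15.8 and 12.5 TPM to 49.1, 19.4, 42.9 and 39.5 TPM (1.47, SE 0.31, adjusted *p* = 0.00555), with treated replicate 2 the lowest. H82 had 0.904, 0.515 and 2.08 TPM without and 1.63, 3.82 and 1.61 TPM with drug, and the groups overlapped (0.63, adjusted *p* = 0.172), with 0.34 without treated replicate 2 and 1.53 (adjusted *p* = 0.00783) under quantile normalization.

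*FZD5* fell in H146, from 9.11 to 12.8 TPM without to 5.21 to 5.92 TPM with drug (log2 fold change -0.81, SE 0.16, adjusted *p* = 0.00369), and did not pass the test in H82 (0.11, adjusted *p* = 0.745), except without treated replicate 1 (0.40, adjusted *p* = 0.016). *FZD3*, which acts in axon guidance and planar polarity, was at 17 to 23 TPM in untreated and 7.65 to 14.3 TPM in treated H82 (-0.80, adjusted *p* = 0.0267). *FZD6*, also of planar polarity, was at 22.4 to 25.9 TPM and 15.6 to 18.3 TPM (-0.43, adjusted *p* = 0.0387). Both calls were lost without treated replicate 2 (adjusted *p* = 0.0538 for *FZD3* and 0.121 for *FZD6*) and without any one untreated library, where adjusted *p* lay between 0.0531 and 0.1 for *FZD3* and between 0.109 and 0.13 for *FZD6*, which also lost its call without treated replicate 3 (0.0696). In H146, *FZD3* (0.03) and *FZD6* (-0.22) did not pass the test, but *FZD6* was lower with the median of ratios (-0.48, adjusted *p* = 0.0179).

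**Figure D4:**
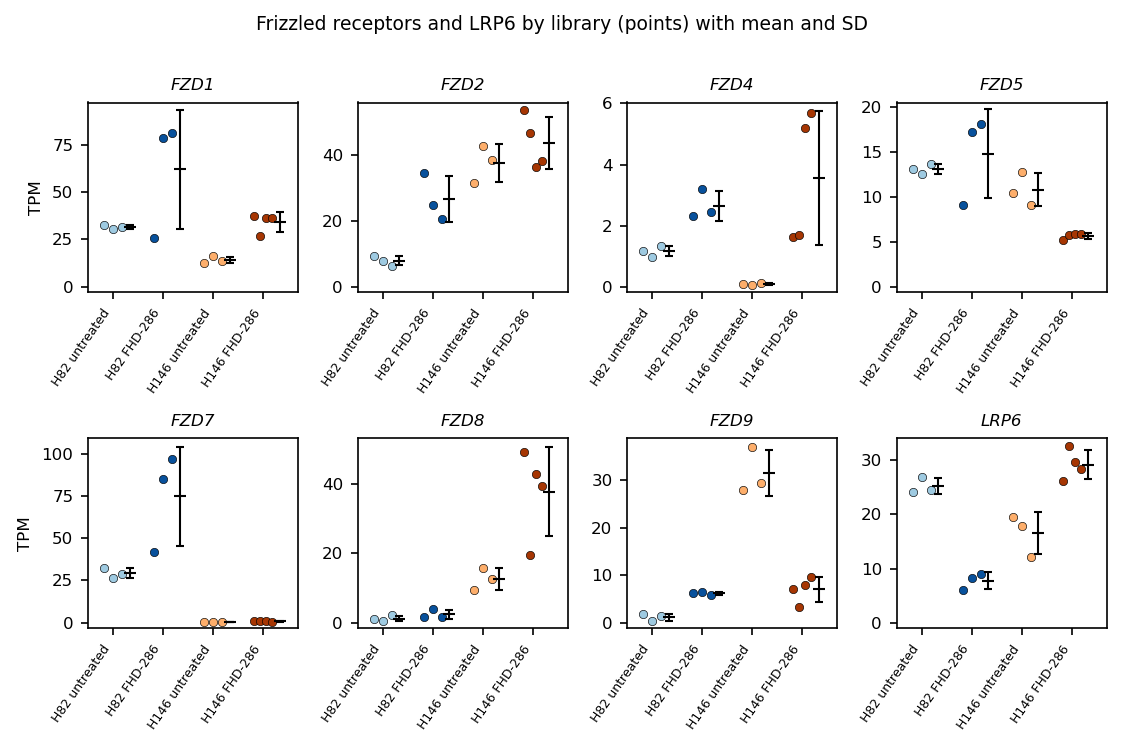
TPM of 7 Frizzled receptor genes and *LRP6* (vertical axes, linear, each from 0) in every library, with points for libraries and the mean and SD beside each group. *FZD9* converges to between 3.32 and 9.68 TPM in the treated libraries of both lines, and *LRP6* moves down in H82 and up in H146.

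The co-receptor gene *LRP6* (chr12:12116025-12267044) fell in H82 from 24.2, 27 and 24.6 TPM to 6.04, 8.18 and 9.07 TPM (log2 fold change -1.60, SE 0.18, adjusted *p* = 0.00053). In H146 it rose from 19.6, 17.9 and 12.1 TPM to 26.2, 32.7, 29.6 and 28.4 TPM (0.81, SE 0.18, adjusted *p* = 0.00645). The groups were apart in both lines, and relative to the median of all genes the difference was -1.04 in H82 and 0.56 in H146. *LRP5*, its relative, was higher in H146, at 52.2 to 77.7 TPM without and 82.1 to 102 TPM with drug (0.51, adjusted *p* = 0.0254). That call was lost with the median of ratios (0.24, adjusted *p* = 0.161), without untreated replicate 1 (0.0811) or 3 (0.0972), and without treated replicate 3 (0.0652) or 4 (0.0531). In H82, *LRP5* did not pass the test (0.44, adjusted *p* = 0.179), though it did with the median of ratios (0.88, adjusted *p* = 0.0125) and without treated replicate 1 (0.69, adjusted *p* = 0.00918).

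*LGR4*, a receptor of the R-spondins that amplify WNT signals, was among the most abundant members in H146, at 153, 181 and 121 TPM without and 192, 184, 202 and 206 TPM with drug. Every treated library was above the untreated ones, but the difference did not pass the test (log2 fold change 0.39, adjusted *p* = 0.0547) except without untreated or treated replicate 2 (adjusted *p* = 0.0291 and 0.0409). Its H82 values were 10.5, 12.6 and 10.1 TPM without and 3.84, 15.2 and 5.57 TPM with drug. The high value belonged to treated replicate 2, the library that stood apart, and without it *LGR4* was lower in treated H82 (-1.09, adjusted *p* = 0.0104, against -0.58 and 0.28 with it). *LGR5*, the stem cell marker of the intestine, was at most 0.654 TPM in H146 and 0.365 TPM in H82, apart from 2.46 TPM in the same library.

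The negative feedback gene *AXIN2* (chr17:65528563-65561648) rose in H146 from 10.8, 12.9 and 9.49 TPM to 40.9, 49.5, 33.1 and 28.4 TPM (log2 fold change 1.67, SE 0.20, adjusted *p* = 0.000405). Every treated value exceeded every untreated one. In H82 it was lower with drug, at 3.93, 3.62 and 4.47 TPM without and 1.49, 2.44 and 1.44 TPM with drug (-0.86, SE 0.22, adjusted *p* = 0.0129). That fall was -0.30 relative to the median of all genes. It was no longer past the threshold with the median of ratios (-0.52, adjusted *p* = 0.0819) or without untreated replicate 1 (0.0654) or 3 (0.0802), and the value turned to 0.17 under quantile normalization.

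*LEF1* (chr4:108047545-108168956), which pairs with beta-catenin on DNA and is itself a target, rose in H146 from 16.5, 15.5 and 13.2 TPM to 36.5, 40.3, 36 and 38 TPM (log2 fold change 1.27, SE 0.12, adjusted *p* = 0.000145). The treated libraries lay close together and far above the untreated ones. The H82 libraries had 0.0715, 0 and 0 TPM without and 0.468, 2.61 and 0.143 TPM with drug, the highest value again in treated replicate 2, and every H82 library was below every H146 library. *RNF43* (chr17:58353676-58417595), a ligase that removes Frizzled receptors from the surface, rose in H146 from 0.206, 0.307 and 0.163 TPM to 3.72, 2.91, 3.42 and 2.65 TPM (1.76, SE 0.17, adjusted *p* = 0.000152). *RNF43* passed the filter in H146 through the treated libraries alone. In H82, *RNF43* was at 0.792, 0.968 and 0.927 TPM without and 0.669, 0.666 and 0.952 TPM with drug, and the groups overlapped (exact *p* = 0.3).

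*NKD1* (chr16:50548396-50649249), an inhibitor that binds Dishevelled, rose in H146 from 0.892, 0.914 and 0.671 TPM to 2.36, 3.02, 1.67 and 1.65 TPM (log2 fold change 0.78, SE 0.20, adjusted *p* = 0.0139). The gene passed the filter there through the treated libraries alone, and the call was lost without untreated replicate 3 (adjusted *p* = 0.0615). In H82 it fell from 5.93, 5.39 and 5.64 TPM to 2.04, 2.31 and 2.72 TPM (-0.99, SE 0.18, adjusted *p* = 0.00344), with no overlap, although under quantile normalization the value was -0.02. *ZNRF3*, the relative of *RNF43*, was higher in H146, at 9.77 to 11.2 TPM without and 13.2 to 15.9 TPM with drug (0.43, adjusted *p* = 0.026), which was 0.18 above the median of all genes. That call of *ZNRF3* was lost with the median of ratios (0.17, adjusted *p* = 0.255), without any one untreated library (0.107, 0.0533 and 0.0672 for replicates 1, 2 and 3) and without treated replicate 3 (0.0772) or 4 (0.0598). In H82, *ZNRF3* was at 19.7 to 22.8 TPM without and 8.35 to 16.4 TPM with drug (-0.69, adjusted *p* = 0.0536), and it passed the threshold without treated replicate 1 (-0.40, adjusted *p* = 0.0168) or 3 (-0.85, adjusted *p* = 0.0414).

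**Figure D5:**
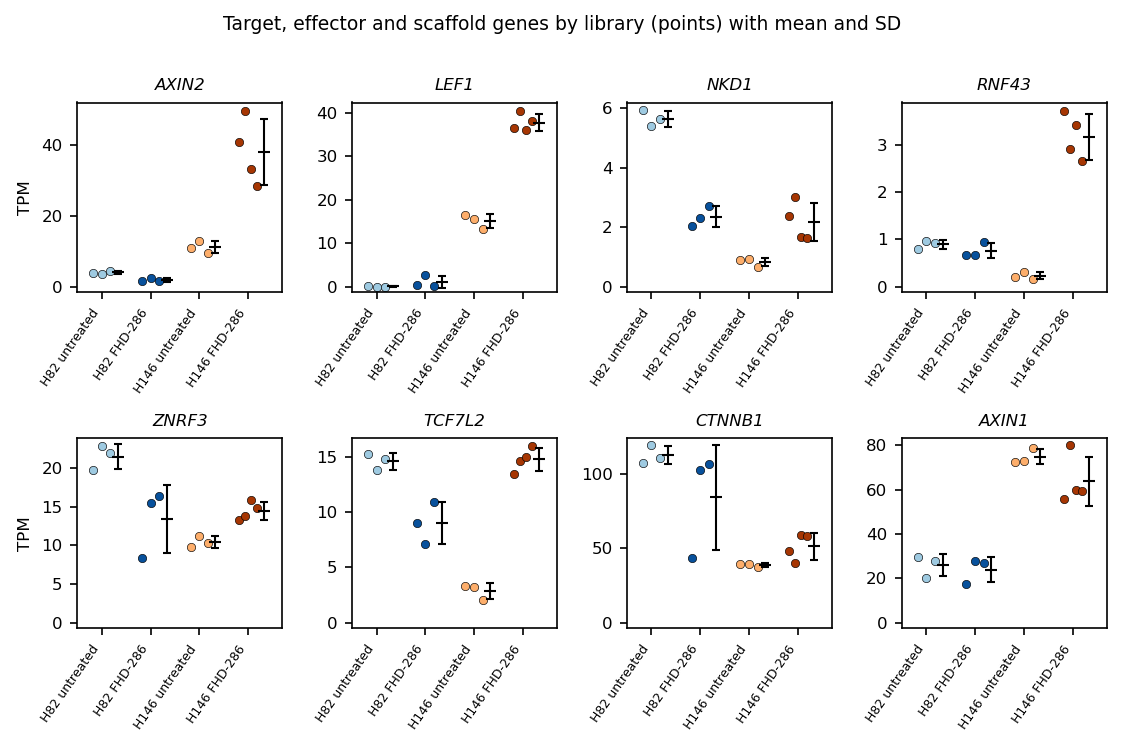
TPM of 8 target, effector and scaffold genes (vertical axes, linear, each from 0) in every library, with points for libraries and the mean and SD beside each group. In H146 the treated points of *AXIN2*, *LEF1*, *NKD1*, *RNF43*, *ZNRF3* and *TCF7L2* are above all untreated points, and in H82 those of *AXIN2*, *NKD1*, *ZNRF3* and *TCF7L2* are below them, the fall of *AXIN2* turning to 0.17 under quantile normalization.

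Of the effector genes, *TCF7L2* (chr10:112950247-113167678), a partner of beta-catenin on DNA, showed the largest difference. It rose in H146 from 3.31, 3.22 and 2.07 TPM to 13.5, 14.7, 15 and 16 TPM (log2 fold change 2.05, SE 0.17, adjusted *p* = 6.65e-05). In H82 the levels were 15.3, 13.8 and 14.8 TPM without and 9.01, 7.13 and 10.9 TPM with drug (-0.66, SE 0.19, adjusted *p* = 0.0207). The groups were apart in both lines, and the untreated H82 libraries (13.8 to 15.3 TPM) lay within the range of treated H146 (13.5 to 16 TPM). In H82 the fall was only -0.10 relative to the median of all genes, and the call was lost with the median of ratios (-0.23, adjusted *p* = 0.317), without treated replicate 2 (0.0595) and without any one untreated library (0.0833, 0.0516 and 0.0764 for replicates 1, 2 and 3).

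*CTNNB1*, which encodes beta-catenin, was at 108, 120 and 111 TPM in untreated and 43.4, 103 and 107 TPM in treated H82, where treated replicate 1 was far below the others (log2 fold change -0.52, adjusted *p* = 0.226). In H146 the levels were 39.6, 39.4 and 37.5 TPM without and 48.2, 40.2, 59.2 and 58.7 TPM with drug. Those groups did not overlap, and the difference passed the test only without treated replicate 2 (0.49, adjusted *p* = 0.00765, against 0.38 and 0.0692 with all libraries). *AXIN1*, the scaffold that is not a target, did not pass the test in H82 (-0.11, adjusted *p* = 0.699) or in H146 (-0.24, adjusted *p* = 0.189), but in H146 it was lower with the median of ratios (-0.52, adjusted *p* = 0.0297) and without treated replicate 2 (-0.35, adjusted *p* = 0.0158). *TCF7* (0.25 in H82 and 0.46 in H146) and *TCF7L1* (0.07 and -0.51), the TCF factors known from T cells and from pluripotent cells, did not pass it either, except *TCF7* in H82 with the median of ratios (0.61, adjusted *p* = 0.0473) and quantile normalization (1.20, adjusted *p* = 0.00625) and *TCF7L1* in H146 with quantile normalization (-0.76, adjusted *p* = 0.0421). Without treated replicate 2 both did in H146, *TCF7* at 0.69 (adjusted *p* = 0.0441) and *TCF7L1* at -0.67 (adjusted *p* = 0.0423). *SFRP1*, a secreted protein that binds WNT ligands, was at 8.12 to 8.64 TPM in untreated and 4.37 to 8.63 TPM in treated H82 (-0.35, adjusted *p* = 0.252), and passed the threshold only without treated replicate 1 (-0.55, adjusted *p* = 0.0399).

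Whether the lines responded differently was asked with an interaction term in 1 fit over all 13 libraries. Of 36 members tested, the log2 fold change was higher in H82 than in H146 for 7 and lower for 13, against 13.3% and 46% of the 24374 genes tested. With the median of ratios these counts were 12 and 7, against 24.7% and 31.6%. The responses of *FZD9* (difference 3.89, SE 0.44, adjusted *p* = 2e-05), *WNT4* (3.77, SE 0.39, adjusted *p* = 9.99e-06) and *WNT11* (3.60, SE 0.52, adjusted *p* = 0.0001) were the farthest above in H82. The 2 log2 fold changes behind the difference of *WNT4* were -0.69 in H82 and -4.46 in H146. Its mean was 1.26 TPM in untreated H82, against 31.6 TPM in untreated H146. On the log2(TPM + 1) scale H82 could not fall as far from there as H146 did. For *WNT4* the test therefore cannot tell a different response from a different starting level. *WNT10B* (1.86), *WNT7B* (1.68), *FZD2* (1.43) and *FZD5* (0.92) were also higher in H82, *WNT7B* at 1.11 without treated H82 replicate 2 and *FZD5* with an adjusted *p* of 0.0525 without untreated H146 replicate 2.

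The responses farthest below in H82 were those of *TCF7L2* (difference -2.71, SE 0.24, adjusted *p* = 3.56e-06), *AXIN2* (-2.53, SE 0.30, adjusted *p* = 2.28e-05), *LRP6* (-2.40, SE 0.25, adjusted *p* = 1.12e-05), *WNT2B* (-2.17), *RNF43* (-1.87) and *NKD1* (-1.77). With the median of ratios they remained past the threshold, at -2.01, -1.91, -1.69, -1.74, -1.48 and -1.24 in the same order. The other 7 were *WNT3* (-1.21), *FZD4* (-1.19), *ZNRF3* (-1.12), *WNT10A* (-0.95), *WNT5A* (-0.93), *WNT6* (-0.86) and *FZD3* (-0.83). Of these, only *WNT10A* was past the threshold with the median of ratios. In the fit over both lines, *RNF43* passed the filter through treated H146 alone and *WNT10A* through untreated H82 alone. Their responses therefore had to differ between the lines, and the counts of calls include them. Leaving out 1 library at a time ended the call of *FZD4* for 10 of the 13 libraries (highest adjusted *p* = 0.0798), of *WNT3* (0.0779) and *WNT6* (0.119) for 8 each, of *FZD3* for 2 (0.0599) and of *WNT5A* for 1 (0.0521). *LEF1* did not differ past the threshold (-0.44, adjusted *p* = 0.405), but did without treated H82 replicate 2 (-0.93, adjusted *p* = 0.00415), and likewise *LGR4* (-0.97, adjusted *p* = 0.0839, against -1.48 and 0.000442 without that library). The differences of *CTNNB1* (-0.90, adjusted *p* = 0.0575), *FZD7* (0.76, adjusted *p* = 0.0906) and *FZD1* (-0.42, adjusted *p* = 0.445) did not pass the test. That of *CTNNB1* did without treated H82 replicate 2 (0.0308) or 3 (0.0232) or treated H146 replicate 2 (0.0388), and that of *FZD7* did with the median of ratios (1.32, adjusted *p* = 0.00499) and without treated H82 replicate 1 (1.13, adjusted *p* = 0.00177).

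Among 61 further genes of the pathway, 8 of the 38 tested in H82 were higher and 17 lower, against 13.1% and 45.5% of all genes. In H146, 22 of 48 were higher and 6 lower, against 32.5% and 15.5%. Without treated H82 replicate 2, 5 of 36 were higher and 16 lower in H82. *NOTUM* then lost its H82 call (-0.86, adjusted *p* = 0.0947, against -1.01 and 0.0331 with all libraries). *DVL2* lost its call too (0.47, adjusted *p* = 0.115, against 0.57 and 0.0365), and *PYGO1* and *CCND1* were not tested. Both *PYGO1* and *CCND1* passed the filter in H82 through the treated libraries alone, and so had to differ. The count of higher calls in H82 includes them and is a description. With the median of ratios the counts were 10 and 11 in H82 and 15 and 7 in H146. A further group was the destruction complex, which marks beta-catenin for degradation, together with its partners. It had 8 of 11 genes lower in H82 and 8 of 11 higher in H146, against 45.5% and 32.5% of all genes. The genes of the group that did not pass the test were *GSK3A*, *CSNK1A1* and *CSNK1E* in H82, and *GSK3A*, *CSNK1D* and *TNKS* in H146. With the median of ratios the counts were 5 lower in H82, against 33.6% of all genes, and 6 higher in H146, against 22.6%. Their median log2 fold change was -0.88 in H82 and 0.69 in H146, against -0.56 and 0.25 for all genes. Genes called lower in H82 included *APC* (-1.23), *GSK3B* (-1.26) and *TNKS* (-1.42), and *APC2*, a relative of *APC*, went from 2.31, 3.22 and 2.55 TPM to 19.7, 7.85, 22.5 and 19.6 TPM in H146 (2.23, adjusted *p* = 0.00102).

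The genes of planar polarity, the branch that orients cells within a sheet, had 4 of 5 lower in H82, namely *VANGL2* (log2 fold change -1.88), *CELSR2* (-1.73), *CELSR3* (-1.65) and *DAAM1* (-1.54), against 45.5% of all genes, and 3 of 7 higher in H146, against 32.5%, or 1 of 7 with the median of ratios. Among the nuclear partners, *TLE4*, a corepressor that binds TCF factors, rose in H146 from 0.861, 1.23 and 0.992 TPM to 36.4, 33.6, 43 and 47.4 TPM (4.33, SE 0.16, adjusted *p* = 2.35e-06). The coactivators *PYGO2* (2.35) and *PYGO1* (1.57) rose in H146 too, and in H82 the corepressor *TLE2* rose (1.81) while *TLE3* fell (-1.64). *CCND1*, the cyclin D1 gene and a target shared with other pathways, rose in H82 from 0.238, 0.376 and 0.381 TPM to 4.45, 14.3 and 17.8 TPM (3.13, SE 0.45, adjusted *p* = 0.00128). It passed the filter through the treated libraries alone and was not tested without treated replicate 2. H146 had 0.578 to 1.11 TPM without and 1.92 to 2.51 TPM with drug (0.80, adjusted *p* = 0.00737).

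Secreted and surface regulators moved as well. *NOTUM*, an enzyme that strips the lipid from WNT ligands and is itself a target, fell in H146 from 40, 44.8 and 48.4 TPM to 5.02, 3.49, 5.51 and 6.07 TPM (log2 fold change -2.93, SE 0.18, adjusted *p* = 1.65e-05), in the same libraries in which *AXIN2* and *LEF1* rose. *SFRP5*, which binds WNT ligands (-1.57), and the adhesion receptor *CD44*, also listed as a target (-1.95), fell in H146, and the ligand gene *RSPO4* rose (1.67). In H82 the DKK co-receptor gene *KREMEN2* fell (-1.65). Genes listed as targets thus moved both ways in H146. *AXIN2*, *LEF1*, *RNF43*, *NKD1*, *ZNRF3*, *TNFRSF19* (1.05), *SP5* (0.64) and *CCND1* rose, *NOTUM*, *NKD2* (-1.22) and *CD44* fell, and *APCDD1* (-0.21) did not pass the test. Of these calls, those of *ZNRF3* and *SP5* (adjusted *p* = 0.0549) were lost with the median of ratios. *SP5*, *TNFRSF19*, *NKD2*, *APCDD1*, *APC*, *GSK3B* and *TNKS* were named after their values had been seen.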

How the data were processed

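RNA-seq values of 13 libraries were analysed: H82 untreated (3) and treated (3), H146 untreated (3) and treated (4). Per the labels, reads were trimmed with Trim Galore 0.4.4, mapped with STAR to hg38 and compared with DESeq2. The authors deposited TPM values, 1 table per line, for 56831 gene symbols. Read numbers cannot be had from TPM, so the depth behind each value is unknown, no interval or floor from counts is given, and the study's count test was replaced by limma. Each column was checked to sum to 1000000, and TPM is scaled within each library, so both tables entered 1 fit for the difference between lines.

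Each line was fitted with limma 3.58.1 in R 4.3.3 (lmFit and eBayes, trend = TRUE) on log2(TPM + 1), treated against untreated, over the genes that reached 1 TPM in 3 or more of its libraries. Fold changes are on that scale and understate the change of low genes. Tests were two-sided, *p* values were adjusted by Benjamini-Hochberg over every gene in the fit, and calls were made under 0.05. The difference between lines is the interaction, H82 minus H146. Members under the filter were compared by an exact permutation test. The scripts were tested on simulated data.

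The members, the list of further pathway genes, the roles and the alternatives were chosen with earlier results of these data known. Values in every library are given for members past the threshold with a log2 fold change of at least 1 in size in a line or past it in both lines, and further pathway genes are named from 1.5 in size. As alternatives, the fits were repeated with a pseudocount of 0.1, no filter, a mean TPM above 2, scaling by the median of ratios, quantile normalization, TPM without mitochondrial genes, eBayes without trend, the replicate number as a block, and each library left out in turn. Coordinates are hg38, from GENCODE release 44. Promoter windows are RefSeq, GRCh38.p14. Python 3.11.15 with pandas 2.3.3 prepared the tables. Reads were not analysed here.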

Additional observations from a re-analysis of the deposited data

Results flagged for a closer look

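In groups of 4 libraries, a single library that lies far from the others was looked for in the 33 members tested in H146, and 5 of them had one among the treated libraries (a gap to the nearest library, over the whole range, past the 95% value of Dixon's ratio, which chance gives in about 1 of 20 groups). *WNT6* was high in replicate 4 at 1.18 TPM (ratio 0.839), *WNT8B* low in replicate 2 at 0.857 TPM (0.926), *WNT10B* high in replicate 1 at 7.02 TPM (0.865), *FZD1* low in replicate 2 at 26.6 TPM (0.886) and *AXIN1* high in replicate 2 at 80 TPM (0.836). *WNT6*, *WNT8B*, *WNT10B* and *AXIN1* had no call in H146 with all libraries, and *FZD1* kept its call without each single library.

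The response differed between the lines, by the interaction of line and treatment in limma, for 20 of 36 members, 7 higher and 13 lower in H82, against 13.3% and 46% of all genes. The log2 fold change in H82 minus that in H146 was 3.89 for *FZD9*, 3.77 for *WNT4*, 3.60 for *WNT11*, 1.86 for *WNT10B*, 1.68 for *WNT7B*, 1.43 for *FZD2* and 0.92 for *FZD5*. It was -2.71 for *TCF7L2*, -2.53 for *AXIN2*, -2.40 for *LRP6*, -2.17 for *WNT2B*, -1.87 for *RNF43*, -1.77 for *NKD1*, -1.21 for *WNT3*, -1.19 for *FZD4*, -1.12 for *ZNRF3*, -0.95 for *WNT10A*, -0.93 for *WNT5A*, -0.86 for *WNT6* and -0.83 for *FZD3*. The limits given above for the differences of *WNT4*, *RNF43* and *WNT10A* apply here too.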

How the results depend on the processing

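Under every alternative that tested the gene, 5 of 7 higher and 2 of 9 lower calls were kept in H82, 9 of 13 and 4 of 5 in H146, and 6 of 7 and 5 of 13 for the difference between lines. Some kept calls are of members that passed the filter through a single group. These were *WNT2B*, *WNT5A* and *WNT11* in H82, *WNT5A*, *FZD4* and *RNF43* in H146 and *RNF43* for the difference. Since these members had to differ, the tally is a description and gives no support to their calls. In H82, quantile normalization gave 11 members higher instead of 7, and 2 lower instead of 9, and the median of ratios gave 4 lower and, of the further pathway genes, 11 lower instead of 17. For the difference between lines, 12 (median of ratios) and 11 (quantile) members were higher instead of 7, and 7 and 6 lower instead of 13. With a pseudocount of 0.1, the exact *p* of *FZD7* in H146 reached the smallest value possible, 0.0286, which made 1 such member instead of 0 among 12 (exact permutation test). The scalings moved the median log2 fold change of all genes in H82 from -0.56 to -0.16 and 0.01, and the share of calls that were lower from 77.7% to 58.6% and 48%. In H146 the median moved from 0.25 to 0.01 and 0.06, and the share from 32.3% to 51.1% and 46.8%.

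Leaving out single libraries gave 4 to 8 members higher and 2 to 11 lower in H82, 9 to 17 and 4 to 7 in H146, and 6 to 8 and 8 to 15 for the difference. For the further pathway genes the ranges were 5 to 8 and 13 to 17 in H82 and 16 to 26 and 6 to 6 in H146. The lowest counts in H82 came without treated replicate 2 (4 higher, where fewer members passed the filter) and without untreated replicate 1 or 3 (2 lower). The replicate number as a block gave 8 members lower for the difference instead of 13, ended the calls of *FZD6* in H82 and of *LRP5* and *ZNRF3* in H146, and added *ZNRF3* in H82 (adjusted *p* = 0.0435). The numbers do not pair the libraries: deviations from the group means of same-numbered libraries correlated at 0.03, 0.01 and -0.04 in H82 and at -0.11, -0.06 and 0.01 in H146. With no filter, *WNT10A* (adjusted *p* = 0.0605) and *FZD4* (0.0573) lost their calls in H82. Other causes of these changes were not tested.

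Some directions turned. In H82 with the median of ratios, *WNT3* was at 0.34, *FZD6* at 0.0124, *AXIN1* at 0.33, *SFRP1* at 0.058 and *RNF43*, under the filter, at 0.10. With quantile normalization, *WNT3* was at 0.77, *WNT4* at 0.43, *WNT10A* at 0.43, *AXIN1* at 0.25, *AXIN2* at 0.17, *LGR4* at 0.0654 and *SFRP1* at 0.46. Quantile normalization also added calls of *FZD1* (0.97), *FZD8* (1.53), *LRP5* (0.76) and *TCF7* (1.20) in H82 and of *FZD6* (-0.45) and *TCF7L1* (-0.76) in H146. Without mitochondrial genes, *FZD5* was at -0.0374 and *TCF7L1* at -0.0719 in H82, and calls of *WNT4* (-0.85) and *ZNRF3* (-0.85) were added there. In H146, the median of ratios put *WNT1* at -0.0377, *FZD2* at -0.0706 and *FZD3* at -0.22, and quantile normalization *WNT1* at -0.13, *WNT2B* at -0.0446 and *FZD3* at -0.22. The difference between lines turned to 0.25 for *WNT5A*, 0.19 for *WNT10A* and 0.0146 for *FZD4* (quantile), to 0.33 for *FZD1* (median of ratios) and, for *LEF1*, to 1.27 (pseudocount of 0.1), 0.0065 (median of ratios) and 0.27 (quantile).

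Without single libraries, the value ranged from -0.27 to 0.23 for *WNT3*, -0.0551 to 0.40 for *FZD5*, -0.27 to 0.0957 for *AXIN1* and -0.24 to 0.34 for *TCF7L1* in H82. In H146 it ranged from -0.046 to 0.19 for *WNT1*, -0.35 to 0.0191 for *WNT9A* and -0.0893 to 0.10 for *FZD3*, and for the difference from -0.70 to 0.11 for *FZD1*.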
